A study of Mus musculus with 2 samples.

Results

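The genes described here are 10 keratins, chosen by name: Krt8, Krt18, Krt19, Krt20, Krt7, Krt23, Krt36, Krt14, Krt15 and Krt17. All 10 were found among the 32285 genes of the files, which hold 53 genes named as keratins. They held 99.3% of all keratin UMIs (unique molecular identifiers, each counting 1 captured transcript molecule) in the epithelial cells, and 0.892% of all UMIs of those cells in one library and 0.925% in the other. The material was colon tumours that azoxymethane (AOM), a carcinogen, and dextran sulfate sodium (DSS), which injures the colon lining, had induced in mice, taken apart into single cells and read with 10x Genomics 3′ v3 chemistry. One library was labelled Gsk3b IEC+/+ and the other Gsk3b IEC-/-, and by the series title the second tests the loss of the kinase gene Gsk3b from the intestinal epithelium. All mice of both libraries had the AOM/DSS treatment. The number of animals in each library, their age, the Cre driver and the deleted part of the gene are left unstated by the sources used here. With 1 library per genotype no difference has a replicate check, so no test was run, and every interval covers counting error only, at the 95% level.

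Keratins are the intermediate filament proteins of epithelial cells. A type I and a type II keratin pair to form the filament, so that Krt8, a type II keratin, is matched by Krt18, Krt19 or Krt20, which are type I. These are the simple keratins of the gut lining, Krt20 marking differentiated surface cells, and Krt7 is a type II keratin of ducts and transitional epithelia. Krt14 and Krt15 are type I keratins of basal cells in stratified epithelia, Krt17 is induced in injured or activated epithelium, and Krt36 belongs to the hair keratins. Krt23 is a type I keratin whose role is less well known.

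By GENCODE vM21, on GRCm38 (mm10), the 10 genes are protein coding and lie in both keratin clusters. The type I genes stand in one row on the minus strand of chromosome 11, in the order Krt20 (99428403 to 99438150), Krt23 (99477974 to 99493137), Krt36 (100102007 to 100105626), Krt15 (100131758 to 100135928), Krt19 (100140810 to 100148665), Krt14 (100203162 to 100207548) and Krt17 (100256217 to 100261029). On chromosome 15 lie Krt7 (101411043 to 101430313, plus strand), Krt8 (101996698 to 102004482, minus strand) and Krt18 (102028180 to 102032027, plus strand), the only type I keratin of the 10 outside chromosome 11. Krt8 and Krt18 point away from each other across 23697 bases. Krt7 overlaps Gm671 and Krt8 overlaps Gm36026 on the opposite strand, and the sources used here do not say whether the counting used strand.

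Krt20, Krt23 and Krt36 belong to the chromosome 11 row, as do Krt15, Krt19, Krt14 and Krt17. Each of Krt20, Krt23 and Krt36 had its highest level in a different epithelial state, as set out further on. The 250 bases before their RefSeq starts (GRCm38.p6) are printed here, 5′ to 3′ on the gene's strand. Matches to the motifs searched are in capitals. A link between these bases and the levels was not tested.
Krt20, chr11:99438154-99438403, strand -: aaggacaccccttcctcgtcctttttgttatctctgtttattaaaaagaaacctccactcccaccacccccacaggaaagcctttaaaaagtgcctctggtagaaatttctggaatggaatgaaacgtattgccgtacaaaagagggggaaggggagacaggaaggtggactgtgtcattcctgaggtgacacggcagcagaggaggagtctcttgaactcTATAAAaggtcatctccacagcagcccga
Krt23, chr11:99493121-99493370, strand -: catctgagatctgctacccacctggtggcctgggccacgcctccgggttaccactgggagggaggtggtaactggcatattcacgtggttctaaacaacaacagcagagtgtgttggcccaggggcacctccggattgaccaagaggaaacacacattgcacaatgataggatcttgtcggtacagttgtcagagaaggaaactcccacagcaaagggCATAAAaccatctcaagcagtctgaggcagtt
Krt36, chr11:100105627-100105876, strand -: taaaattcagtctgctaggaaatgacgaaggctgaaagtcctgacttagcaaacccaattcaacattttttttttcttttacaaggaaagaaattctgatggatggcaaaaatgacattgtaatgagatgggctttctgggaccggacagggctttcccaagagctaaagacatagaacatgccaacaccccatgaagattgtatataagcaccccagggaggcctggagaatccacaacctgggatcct
The TATA box was searched as TATAAA and the GC box, which Sp1 binds, as GGGCGG. The site of AP-1 factors was searched as TGANTCA, the type of site that CDX factors bind as TTTATG, and the site of the Wnt-pathway factors TCF and LEF as CTTTGAT. Each was searched on both strands of the same 250 bases of 32851 promoters, and no match overlapped another. The Krt20 window held TATAAA 29 bases before the start, which 12.4% of the promoters hold somewhere. The Krt23 window held the CDX-type letters on the other strand, read as CATAAA, 32 bases before the start, which 10.8% hold. The Krt36 window held none of the 5 motifs. RefSeq windows were at hand for 7 of the 10 genes. Among the other windows Krt7 held 4 GC boxes (32.7% of promoters hold at least 1), and those of Krt8, Krt18 and Krt14 held no match. The windows of Krt7 (101412153 to 101412402) and Krt14 (100206031 to 100206280) lie wholly inside the GENCODE gene spans given above. For these genes the search therefore did not cover the bases before the GENCODE start. A match describes letters and shows no binding.

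Both matrices hold every barcode, 164574326 UMIs in the IEC+/+ and 156641780 in the IEC-/- library. Barcodes with 5000 or more UMIs and at least 1 UMI of Epcam, an epithelial surface gene, numbered 5576 and 5325. Clusters in which the median barcode had under 10 Epcam UMIs, or over 50% of barcodes had a UMI of the leukocyte gene Ptprc, were set aside, limits that were chosen after the clusters had been seen. This left 3908 IEC+/+ and 3911 IEC-/- epithelial cells with medians of 22931 and 21532 UMIs, in 14 of 27 clusters, called states. Of barcodes with 1000 or more UMIs, 47 sequences occurred in both libraries. Gsk3b itself read 262 UMIs per 1000000 UMIs (CPM; 259 to 265) in the IEC+/+ and 238 CPM (235 to 241) in the IEC-/- epithelial cells. These UMIs come from the 3′ end of the transcript and the deleted part is not stated. Whether they lie inside it is not known, so they check neither label. The libraries are called here by their labels.

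Markers of other cell types were also read in the epithelial cells, some of them at different levels in the 2 libraries. Summed over each list, with no gene at 0 in either library, IEC+/+ and IEC-/- cells held 1008 and 752 CPM of 6 neutrophil genes, 502 and 255 CPM of 6 macrophage genes, 508 and 670 CPM of 6 B or plasma cell genes, 142 and 70.1 CPM of 5 mast cell genes and 4.27 and 23.7 CPM of 5 fibroblast genes. Closer together were 22.2 and 20.3 CPM of 5 T cell genes, 6.31 and 6.10 CPM of 4 endothelial genes and 13.8 and 13.3 CPM of Ptprc. The part of these cells or their RNA in the keratin differences was not tested. As a level for free RNA, the keratins were read in barcodes with 5000 or more UMIs, at most 4 Epcam UMIs and at least 1 Ptprc UMI, 1369 and 853 in number with medians of 7805 and 8022 UMIs. These comparison barcodes held each of the 10 keratins at 9.96% to 14.5% of its epithelial level in the IEC+/+ library and at 10.3% to 14.8% in the IEC-/- library.

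The simple keratins differed little between the libraries. Krt8 read 3713 CPM (3702 to 3725) in IEC+/+ and 4134 CPM (4121 to 4146) in IEC-/- epithelial cells, a log2 ratio of IEC-/- over IEC+/+ of 0.15. Krt18, its type I partner, read 1820 CPM (1812 to 1828) and 1889 CPM (1881 to 1898), a log2 ratio of 0.05. Krt19 read 1912 CPM (1904 to 1920) and 2016 CPM (2007 to 2024), a log2 ratio of 0.08. Each of these intervals excludes the other library's value, at differences under 1.5-fold. Krt20 read 64.5 CPM (63.0 to 66.0) and 52.5 CPM (51.2 to 54.0), a log2 ratio of -0.30, and Krt7 read 604 CPM (599 to 608) and 532 CPM (528 to 537), a log2 ratio of -0.18.

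Krt23 and Krt15 stood apart from the other 8, at less than 0.5 of the IEC+/+ level in the IEC-/- library. Krt23 read 193 CPM (191 to 196) in IEC+/+ and 87.1 CPM (85.3 to 89.0) in IEC-/- cells, from 20902 and 8872 UMIs, a log2 ratio of -1.15 (-1.18 to -1.11). Krt15 read 45.8 CPM (44.5 to 47.0) and 18.3 CPM (17.4 to 19.1), from 4951 and 1859 UMIs, a log2 ratio of -1.33 (-1.40 to -1.25). With each state given the same weight, the Krt15 ratio was -0.68 and the Krt23 ratio -0.82. Krt14 read 27.8 CPM (26.8 to 28.8) and 22.6 CPM (21.7 to 23.6), a log2 ratio of -0.29, which was 0.030 when barcodes with a Ptprc UMI were left out. Krt17 read 440 CPM (436 to 444) and 412 CPM (408 to 416), a log2 ratio of -0.10, and Krt36 read 94.7 CPM (92.9 to 96.6) and 83.4 CPM (81.7 to 85.2), a log2 ratio of -0.18. The last 2 ratios turned to 0.034 and 0.060 with states weighted equally.

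Past 1.5-fold, 0 of the 10 keratins were higher and 2 were lower in the IEC-/- library. Among 16711 genes with 50 or more UMIs, 5.90% were higher and 9.44% lower past the same fold, 15.3% in all. The median log2 ratio of the 10 was -0.18, beside -0.06 for all those genes.

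**Figure D1:**
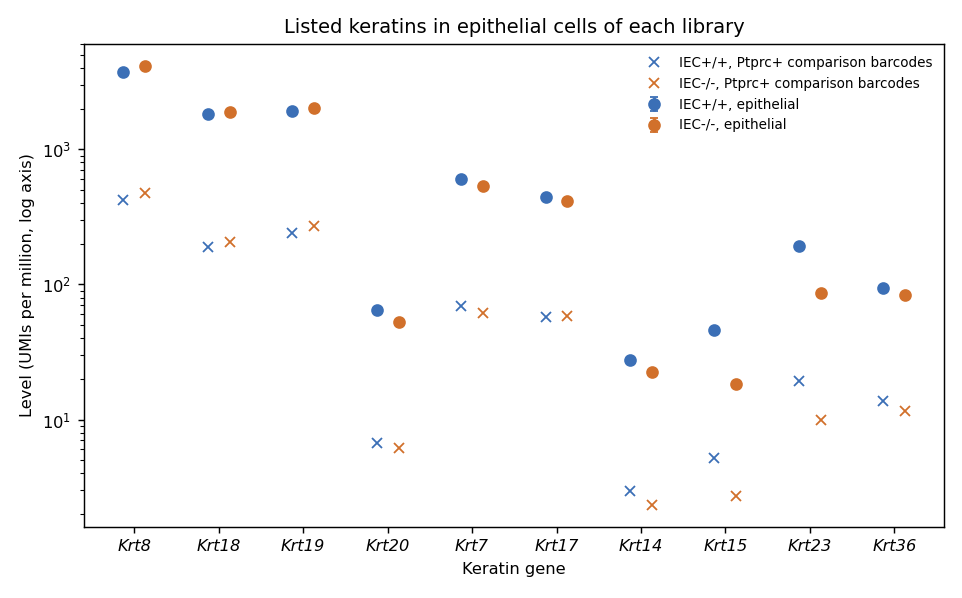
Level of each keratin in CPM (log axis) in epithelial cells (circles) and in Ptprc-positive comparison barcodes (crosses) of the IEC+/+ (blue) and IEC-/- (orange) library; bars are exact Poisson intervals and are mostly smaller than the circles. Krt23 (193 and 87.1) and Krt15 (45.8 and 18.3) show the widest gaps, and the crosses lie at 9.96% to 14.8% of the circles.

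Shares of cells with a UMI were counted after each cell had been thinned to 5000 UMIs, with exact Clopper-Pearson intervals. Krt8 was read in 99.9% of the cells of either library, beside 87.0% and 90.6% of the comparison barcodes. Krt23 was read in 48.0% of IEC+/+ cells (46.4% to 49.6%) and 27.7% of IEC-/- cells (26.3% to 29.1%), beside 9.72% and 4.10% of the comparison barcodes, and without thinning in 78.4% and 56.8% of cells. Krt15 was read in 9.03% (8.15% to 9.98%) and 4.99% of cells (4.32% to 5.72%), beside 2.34% and 1.17%, and without thinning in 23.5% and 15.2%. For both genes, the share of cells and the level were thus lower in the IEC-/- library. Krt14 was read in 6.78% and 4.30%, beside 1.61% and 0.94%. Krt20 was read in 11.2% and 10.8%, beside 3.65% and 3.63%, and Krt36 in 20.9% and 16.0%, beside 6.14% and 6.10%. Krt7 was read in 88.8% and 84.7% and Krt17 in 48.8% and 46.8%, with comparison barcodes between 24.5% and 28.4%. Without thinning the shares were 19.1% and 13.7% for Krt14, 24.2% and 22.8% for Krt20, 49.7% and 39.9% for Krt36, 97.8% and 96.6% for Krt7 and 80.1% and 78.3% for Krt17. The Krt20 and Krt17 shares lay close together in both libraries, while the Krt14 and Krt36 shares were lower in the IEC-/- library.

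The epithelial states were formed without any keratin gene, and 13 of the 14 are described here, 8 of them with a name from marker genes. By leading or marker genes they were absorptive-like cells led by Clca4b (326 IEC+/+ and 320 IEC-/- cells), progenitor-like cells led by Fut9 (487 and 645), Wnt-high cells with Notum (310 and 559), cycling-like (282 and 301), goblet-like (77 and 345), Paneth-like cells with Lyz1 (193 and 174), enteroendocrine-like (22 and 33), squamous-like cells with Sprr2d (0 and 24), and 5 clusters called by 2 genes each: Tgm4-Cadps (729 and 34), Ly6g6c-Unc5d (270 and 370), Myl7-Fxyd4 (371 and 212), Adh1-Muc3 (115 and 416) and Pnliprp2-Ptn (350 and 176). The Wnt-high name is not particular to its state, where 7 Wnt-high tumour markers summed to 2040 CPM. They summed to 5313 CPM in Paneth-like, 2929 in Pnliprp2-Ptn, 1813 in Tgm4-Cadps and 1679 in Ly6g6c-Unc5d cells, and to 751 CPM or less in the other described states. The Tgm4-Cadps state came mostly from the IEC+/+ and the squamous-like state wholly from the IEC-/- library, so that for these the library and the state cannot be told apart. Levels by state below sum both libraries. Orders of states, and the terms highest and lowest, cover the 12 described states with 30 or more cells; the 24 squamous-like cells are left out of them and described further on.

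Krt8 and Krt19 followed each other across the states. Krt8 was highest in absorptive-like cells (7622 CPM), then in Myl7-Fxyd4 (5998 CPM) and Adh1-Muc3 cells (4777 CPM), and lowest in Tgm4-Cadps cells (2528 CPM). Krt19 had the same 3 states on top, at 4187, 3609 and 2751 CPM, and was lowest in Wnt-high cells at 763 CPM. Both libraries, taken alone, put absorptive-like cells first for both genes among states of 30 or more cells; for Krt19 the squamous-like cells, at 4335 CPM (4147 to 4530), had an interval that holds the 4322 CPM of IEC-/- absorptive-like cells.

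Krt18 ran the other way, although it pairs with Krt8 in the filament. It was highest in Ly6g6c-Unc5d (2668 CPM) and Pnliprp2-Ptn cells (2634 CPM), whose intervals overlap, and lowest in Adh1-Muc3 (1051 CPM) and absorptive-like cells (1118 CPM). The number of Krt8 UMIs per Krt18 UMI was 6.82 in absorptive-like cells, 4.55 in Adh1-Muc3 and 4.43 in Myl7-Fxyd4 cells. It was 1.11 in Pnliprp2-Ptn, 1.21 in Wnt-high and 1.27 in Paneth-like cells, and 2.07 in progenitor-like cells. The libraries gave close ratios: 6.66 (IEC+/+) and 7.0 (IEC-/-) in absorptive-like cells, 1.22 and 1.20 in Wnt-high cells. Within states, however, cells with more Krt8 had on average more Krt18, by the correlations given further on.

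**Figure D2:**
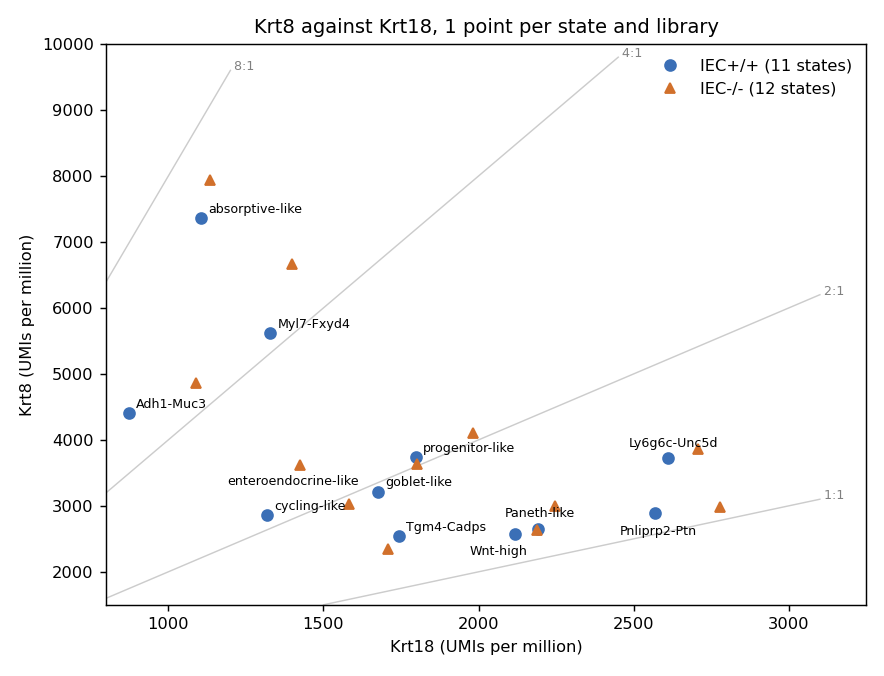
Krt8 against Krt18 in CPM, 1 point for each described state with 30 or more cells in a library (blue circles IEC+/+, orange triangles IEC-/-); grey lines mark 1, 2, 4 and 8 Krt8 UMIs per Krt18 UMI. Absorptive-like, Myl7-Fxyd4 and Adh1-Muc3 cells lie above the line of 4 in both libraries, while Wnt-high, Paneth-like, Ly6g6c-Unc5d and Pnliprp2-Ptn cells lie between the lines of 1 and 2.

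Krt20 was the most state-bound of the 10. It read 541 CPM in absorptive-like cells, which held 75.4% of its UMIs, and 226 CPM in the enteroendocrine-like cells. Goblet-like cells read 56.0 CPM and Myl7-Fxyd4 cells 48.1 CPM. In Wnt-high cells it read 5.10 CPM, 106-fold below the top, and 6 of 11 states lay under 2 times the level of the comparison barcodes (6.72 and 6.15 CPM), where a low value cannot be told from free RNA. Within absorptive-like cells Krt20 read 606 CPM in the IEC+/+ and 464 CPM in the IEC-/- library, a log2 ratio of -0.39 (-0.45 to -0.33), while in Myl7-Fxyd4 cells it read 41.5 and 59.7 CPM, a log2 ratio of 0.52 (0.34 to 0.71).

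Krt7 spanned 3.10-fold between its highest and lowest of the 12 states, while the squamous-like cells, left out here, read 2253 CPM. The 12 states lay between 240 CPM (Adh1-Muc3) and 744 CPM (Ly6g6c-Unc5d), and 6 of the 11 neighbouring pairs in that order had overlapping intervals. In 8 of the 11 described states with 30 or more cells in both libraries it was lower in the IEC-/- library beyond counting error, by no more than 0.32 on the log2 scale.

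Krt17 and Krt23 were both high in Pnliprp2-Ptn and Ly6g6c-Unc5d cells. Krt17 read 1079 CPM in Pnliprp2-Ptn, 964 CPM in Ly6g6c-Unc5d and 694 CPM in Wnt-high cells. In absorptive-like cells it read 59.5 CPM, as low as in the comparison barcodes (57.4 and 58.4 CPM). Krt23 read 304 CPM in Tgm4-Cadps, 295 CPM in Ly6g6c-Unc5d and 236 CPM in Pnliprp2-Ptn cells, and 15.2 CPM in Adh1-Muc3 cells. Tgm4-Cadps cells, the top state for Krt23, came almost all from the IEC+/+ library; each library alone put Ly6g6c-Unc5d cells on top of its states of 30 or more cells (354 and 254 CPM), below the 432 CPM of the squamous-like cells.

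Krt36, Krt14 and Krt15 had their highest levels, among states of 30 or more cells, in Myl7-Fxyd4 cells, a place that for Krt14 rested on 1 cell. Krt36 read 228 CPM there, 145 CPM in absorptive-like and 118 CPM in progenitor-like cells. Krt14 read 86.9 CPM there and 83.3 CPM in absorptive-like cells, and 26.7 CPM or less in each of the other 10 states of 30 or more cells. Without 1 IEC-/- cell, described further on, Myl7-Fxyd4 cells read 74.2 CPM of Krt14, below absorptive-like cells, and the squamous-like cells read 143 CPM. Krt15 read 77.9 CPM there, 76.7 CPM in progenitor-like cells and 49.8 CPM in Tgm4-Cadps cells. The IEC-/- library alone put its 34 Tgm4-Cadps cells first for Krt15, and its Myl7-Fxyd4 cells read 18.9 CPM. These RNAs sat in few cells: the 40 highest cells of a library, 1% of it, held 38.0% (IEC+/+) and 57.2% (IEC-/-) of Krt14 UMIs, 40.4% and 49.7% of Krt15 UMIs, but 6.38% and 6.22% of Krt8 UMIs. Which state came first depended on the clustering: at Leiden resolution 0.5 Myl7 and Fut9 led the same cluster, and Krt14 was then highest in the Clca4b-led cells. With the IEC+/+ library clustered alone, Krt14 and Krt36 were highest in a Ly6g6c-led cluster. Of the 11 neighbouring pairs in the order of the 12 states, intervals overlapped in 2 for each of Krt8, Krt18 and Krt19 and in 4 for Krt23 and Krt17. They overlapped in 6 for Krt15, in 7 for Krt20 and Krt36 and in 8 for Krt14. The order of the rarer keratins is thus loose, for Krt14 and Krt15 also at the top.

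**Figure D3:**
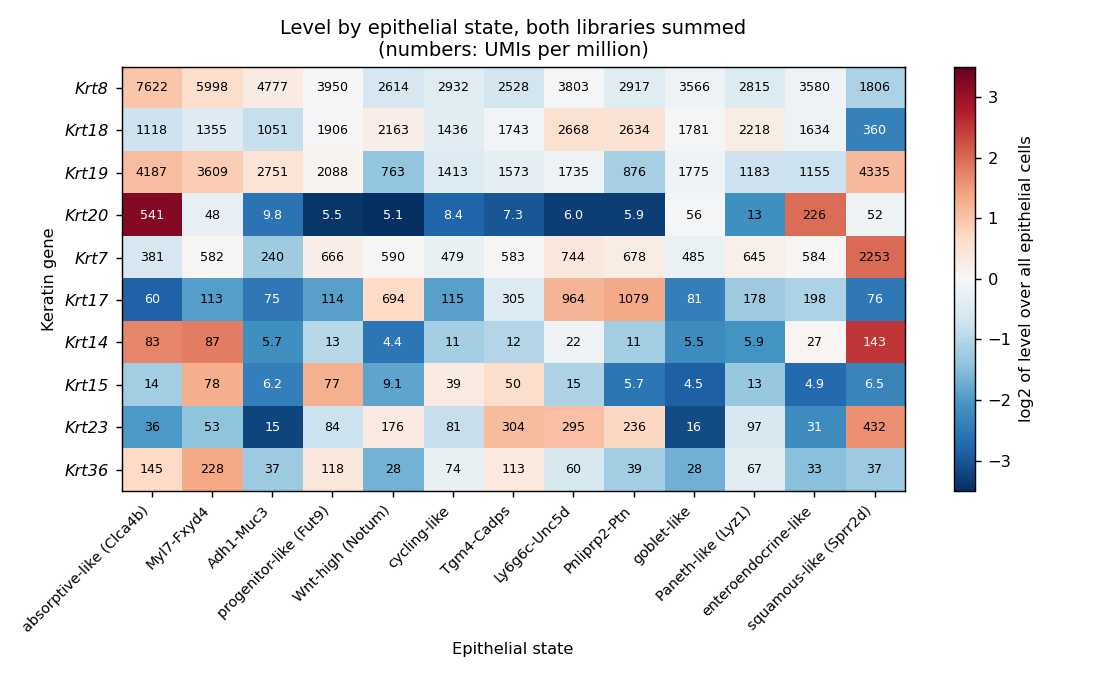
Levels of the 10 keratins (rows) in 13 epithelial states (columns), both libraries summed; numbers are CPM and colour is the log2 of that level over all epithelial cells. Krt20 is concentrated in absorptive-like cells (541), Krt17 is high in Pnliprp2-Ptn cells (1079), and Krt8 and Krt18 have their high values in different columns.

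The lower Krt23 of the IEC-/- library was present in each described state that could be compared. In the 11 states with 30 or more cells in both libraries the log2 ratio lay between -1.32 and -0.48, each interval below 0, and 9 states were past 1.5-fold. Krt23 read 246 CPM in IEC+/+ and 139 CPM in IEC-/- Wnt-high cells, a log2 ratio of -0.82 (-0.92 to -0.72). It read 274 and 150 CPM in Pnliprp2-Ptn cells (-0.87) and 132 and 59.8 CPM in Paneth-like cells (-1.15). The smallest gaps were in Ly6g6c-Unc5d (354 and 254 CPM, -0.48) and progenitor-like cells (103 and 70.7 CPM, -0.54). Adh1-Muc3 and goblet-like cells, with 30.2 and 12.1 CPM and 29.2 and 13.8 CPM, lay under 2 times the comparison barcodes; of the 9 states above that, 7 were past 1.5-fold. Krt23 read 19.2 and 9.96 CPM in the comparison barcodes and 136 and 63.2 CPM among barcodes of under 100 UMIs. Both are levels of free RNA, which can come from these epithelial cells, so they are not a separate observation of the difference.

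As background, the share of all genes lower past 1.5-fold was 6.42% in progenitor-like, 4.81% in Wnt-high, 18.5% in Tgm4-Cadps and 7.46% in absorptive-like cells. It was 4.32% in Ly6g6c-Unc5d, 8.51% in Myl7-Fxyd4, 4.71% in cycling-like, 7.25% in Adh1-Muc3, 6.08% in Pnliprp2-Ptn, 10.2% in goblet-like and 5.83% in Paneth-like cells. Krt23 was among those genes in 9 of these 11 states and Krt15 in 9.

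Krt15 was lower past 1.5-fold in 9 of the 11 states. The widest gap was in Myl7-Fxyd4 cells, 112 CPM in IEC+/+ and 18.9 CPM in IEC-/- cells, a log2 ratio of -2.56 (-2.82 to -2.31). Progenitor-like cells read 108 and 55.2 CPM (-0.97) and cycling-like cells 49.8 and 26.3 CPM (-0.92). In 2 states it was higher: Tgm4-Cadps cells read 47.1 and 112 CPM (log2 ratio 1.25) and absorptive-like cells 8.15 and 20.8 CPM (1.35). There 7.16% and 4.88% of all genes were higher past 1.5-fold. These 2 values rest on few cells, since 1 IEC-/- cell held 53.8% of the Krt15 UMIs of that library's Tgm4-Cadps cells and another 41.1% of those of its absorptive-like cells. Without the cell with the most Krt15 UMIs in each library the ratios were 0.37 (-0.09 to 0.78) and 0.69 (0.23 to 1.15). Of the 9 lower states, Adh1-Muc3 and goblet-like cells had 62.1% and 60.0% of their IEC+/+ Krt15 UMIs in 1 cell, and their ratios moved from -1.33 and -1.16 to -0.17 (-1.14 to 0.93) and 0.0065 (-1.26 to 1.55) on the same terms; goblet-like and Pnliprp2-Ptn cells also lay under 2 times the comparison barcodes.

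**Figure D4:**
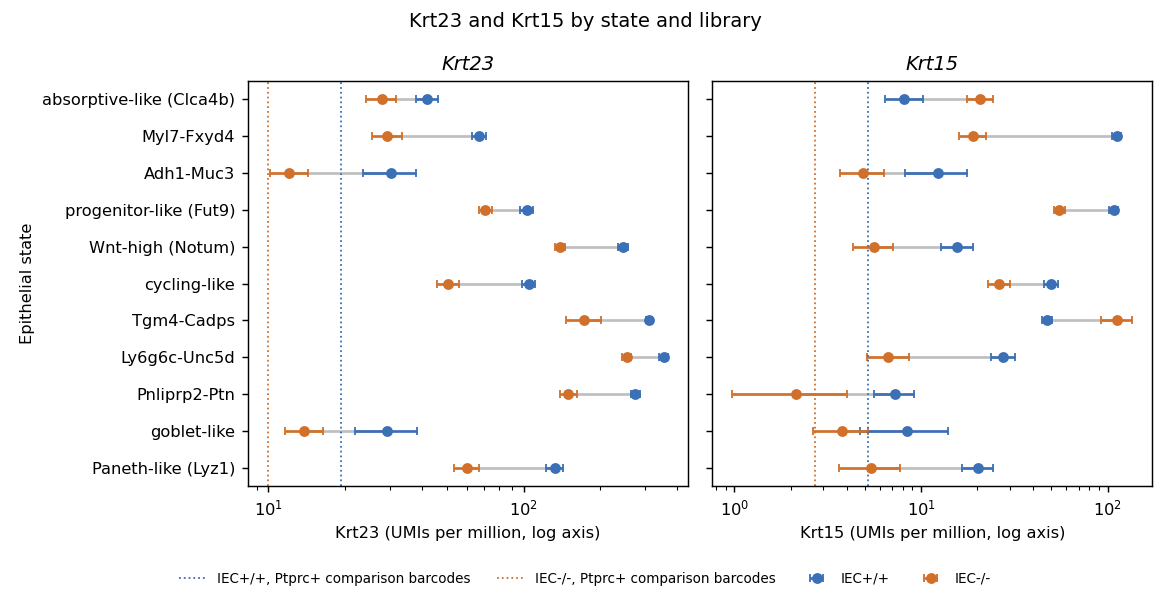
Krt23 (left) and Krt15 (right) in CPM (log axis) for each of the 11 described states with 30 or more cells in both libraries, IEC+/+ in blue and IEC-/- in orange, with exact Poisson intervals; dotted lines are the comparison barcodes of each library. Krt23 is lower in the IEC-/- library in all 11 states, and Krt15 in 9, the exceptions being Tgm4-Cadps and absorptive-like cells.

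Krt8 and Krt18 mostly had small differences in 1 direction across states, and Krt19, Krt17, Krt14 and Krt36 went both ways. Krt8 was higher in the IEC-/- library beyond counting error in 10 of 11 states and lower in 1, and Krt18 was higher in 8 and lower in 0, none past 1.5-fold. Krt19 was lower in Pnliprp2-Ptn cells (969 and 668 CPM, log2 ratio -0.54) and higher in Myl7-Fxyd4 cells (3313 and 4123 CPM, 0.32). Krt17 was higher in Myl7-Fxyd4 cells (88.4 and 155 CPM, 0.81; 0.58, under 1.5-fold, without the single Krt14-rich cell described next, which held 15.4% of the IEC-/- Krt17 UMIs there) and lower in Tgm4-Cadps cells (313 and 120 CPM, -1.39). Krt14 was lower beyond counting error in 5 states and higher in 3. Past 1.5-fold it was lower in 6, where the intervals of Wnt-high and Tgm4-Cadps cells hold 0, and higher in 1. That state was Adh1-Muc3 (2.12 and 6.39 CPM), where 6.29% of all genes were higher past 1.5-fold. Its IEC+/+ value lay below the 2.98 CPM of that library's comparison barcodes. Krt36 was higher in progenitor-like cells (88.3 and 139 CPM, 0.65) and lower in cycling-like cells (92.6 and 50.8 CPM, -0.87).

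The Krt14 level of 1 state turned on 1 cell. In Myl7-Fxyd4 cells it read 78.9 CPM in IEC+/+ and 101 CPM in IEC-/- cells, a log2 ratio of 0.35 (0.21 to 0.49). A single IEC-/- cell held 34.6% of that state's IEC-/- Krt14 UMIs, and without that cell the ratio was -0.26. Of its 24284 UMIs, 263 were Krt14, 181 Krt17, 103 Krt5, 73 Krt6a, 12 Col17a1, a hemidesmosome collagen, and 3 Trp63, the p63 gene of basal squamous cells. It had 11 UMIs of Krt8, 7 of Krt18 and 9 of Krt19, beside 8 of Epcam and 0 of Ptprc. The next highest Krt14 cell of that library had 96 UMIs of Krt14, 0 of Krt5 and 804 of Krt8. Over all epithelial cells the single cell held 11.4% of the IEC-/- Krt14 UMIs.

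Over single cells the closest pair was Krt8 with Krt19. Pearson r of log values over thinned cells was 0.51 in the IEC+/+ and 0.55 in the IEC-/- library. Krt8 and Krt18 had an r of 0.13 and 0.09 over all cells, but a mean of 0.37 within states (from -0.04 to 0.70 over 25 state-by-library groups), and -0.59 across the 25 profiles of those groups. The pair thus went together on average among cells of a state and ran in opposite order between states. Krt18 went with Krt17 (0.33 in each library) and Krt7 (0.28 and 0.31), and Krt17 with Krt23 (0.28 and 0.27), while Krt19 and Krt17 had negative values (-0.23 and -0.38). Within states these shrank, to a mean of 0.13 for Krt18 with Krt17 and -0.04 for Krt19 with Krt17. Cells of a library share its depth and free RNA, so these r describe the libraries and carry no test.

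Among the less abundant keratins, shared cells were compared with the product of the separate shares. Krt23 and Krt17 were read together in 1.23 times (IEC+/+) and 1.37 times (IEC-/-) as many cells as that product, Krt36 and Krt14 in 1.5 and 1.67 times, Krt36 and Krt15 in 1.44 and 1.67 times, and Krt20 and Krt14 in 1.68 and 2.26 times. Within states the r of Krt20 with Krt14 averaged -0.018 in the IEC+/+ and 0.0050 in the IEC-/- library, against 0.09 and 0.15 over all cells. Krt20 met Krt17 in 0.68 and 0.67 times and Krt23 in 0.56 and 0.56 times the product. Krt14 and Krt15, both type I keratins of basal cells in stratified epithelia, gave 1.67 in the IEC+/+ and 0.96 in the IEC-/- library. Krt14 was read in 4.30% and Krt15 in 4.99% of the thinned IEC-/- cells, so the second value rests on few shared cells. No interval was computed for these ratios, so a difference between the libraries is not shown.

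**Figure D5:**
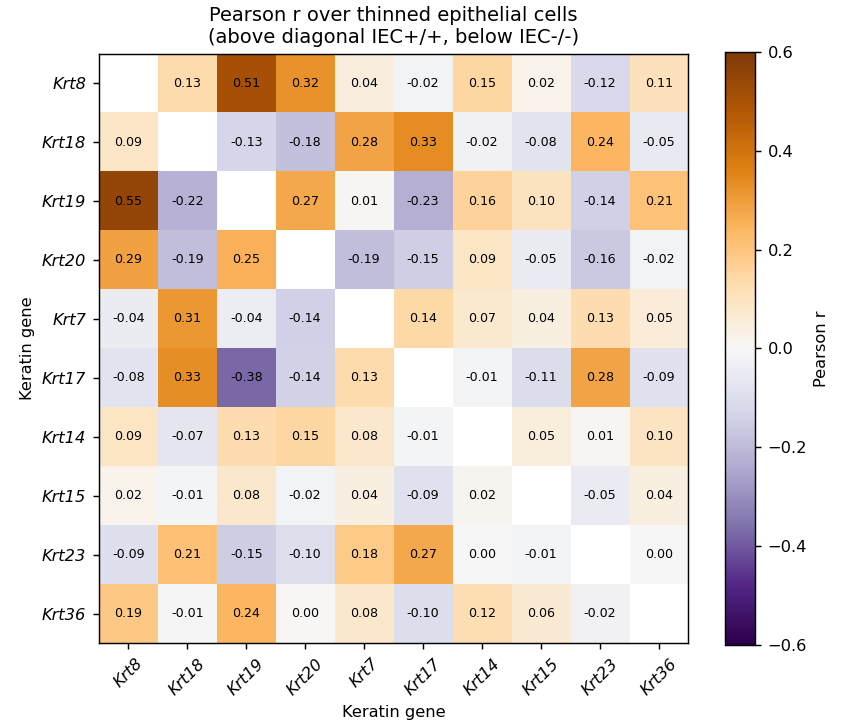
Pearson r between keratins over epithelial cells thinned to 5000 UMIs each, IEC+/+ above and IEC-/- below the diagonal. Krt8 with Krt19 has the highest value in both libraries (0.51 and 0.55), and Krt19 with Krt17 the lowest (-0.23 and -0.38).

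Among 6813 other genes with a mean of 20 CPM or more, the 5 most like each keratin were taken by r of log2(CPM + 1) over the 25 profiles. Krt17 was closest to Timp2 (r = 0.973), Fnbp1, Stard5, 2610307P16Rik and Kpna3 (0.965), and Krt23 to Vmp1 (0.954), Slco5a1, Pls3, Ecscr and Etv6 (0.938). Krt8 was closest to Fam83h (0.967), Flii, Nlrp4e, Il1rn and Slc25a24 (0.943), and Krt19 to Pgd (0.954), 2200002D01Rik, Gsto1, S100a10 and Il1rn (0.926). Il1rn, which encodes the interleukin-1 receptor antagonist, was thus among the 5 for both. Krt18 was closest to Atp13a3 (0.931), Ccdc141, Cdk17, Smim3 and Il23a (0.904), and Krt7 to Mboat2 (0.848), Cdk17, Gm49890, Nipal2 and Adcy8 (0.814). For Krt20 they were Slc6a8 (0.920), Sh3glb1, Ceacam20, Mfn2 and Irf7 (0.896), for Krt36 Pmepa1 (0.854), Aprt, Pkm, Piezo1 and Avpi1 (0.809), for Krt14 Znhit1 (0.842), Emp1, Ehd1, Pmepa1 and Cttn (0.808), and for Krt15 Tns4 (0.853), Avpi1, Colgalt1, Chchd2 and Fam136a (0.801). Profiles of the same state in the 2 libraries are alike, so they are not 25 separate observations.

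A small squamous-like state combined listed and unlisted keratins. It held 24 cells, 0.614% of the IEC-/- epithelial cells, against 0 of 3908 IEC+/+ cells, which allows a share of up to 0.0943%. It was named from Dsg3, Sprr1a and Ly6d beside Krt5 and Krt13, and Trp63 was read in 1 of its cells; 6 of 8 goblet and 6 of 6 regenerative markers were also read in at least 25% of its cells. Its cells read 4335 CPM of Krt19 (4147 to 4530), 2253 CPM of Krt7 (2118 to 2395), 432 CPM of Krt23 (374 to 496) and 143 CPM of Krt14 (111 to 182). The other IEC-/- epithelial cells read 2005, 525, 85.6 and 22.1 CPM of the same genes. Krt18 was low, at 360 CPM against 1896 CPM, and so was Krt8, at 1806 CPM against 4144 CPM, 48.6% of it from 1 cell. Krt17 read 76.0 CPM against 413 CPM. The 6 neutrophil markers, S100a8 and S100a9 among them, summed to 8514 CPM there against 668 to 2345 CPM in the other states, and Ptprc read 43.4 CPM against 11.5 to 24.7 CPM; their part in these levels was not tested.

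The squamous-like cells also carried much of the library's RNA of keratins outside the 10. Krt13, the type I keratin of moist stratified epithelia, read 2153 CPM, Krt6a 1392 CPM, Krt6b 1120 CPM and Krt5, the basal type II keratin, 384 CPM. These 24 cells held 52.1% of the IEC-/- Krt13 UMIs, 60.5% of Krt6a, 90.2% of Krt6b and 56.0% of Krt5. Sprr2d (31091 CPM) and Psca (34473 CPM) led the state, followed by Ppbp, BC037156, Ltf and Cnfn (2599 CPM). Sprr2d, Psca and Cnfn each had 89.2% or more of their IEC-/- UMIs there.

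Of the other 43 keratin genes, 17 had 50 or more UMIs, 8 were at 0, and none passed 18.7 CPM in a library. Past 1.5-fold, 5 were higher and 5 lower in the IEC-/- library, and 7 were neither, beside 5.90% higher and 9.44% lower among all genes. Krt13 read 6.33 and 18.7 CPM (log2 ratio 1.56), Krt6a 4.74 and 10.4 CPM (1.13), Krt6b 20 and 572 UMIs, Krt5 6 and 316 UMIs, and Krt78 19 and 40 UMIs. Without the squamous-like cells, 3 were higher, 5 lower and 9 neither. The 3 higher were Krt5 (4.63), Krt6b (1.58) and Krt78 (0.85, with an interval of -0.017 to 1.75 that holds 0), while Krt13 came to 0.51 and Krt6a to -0.20, within 1.5-fold. Without those cells and the single Krt14-rich cell, 36 IEC-/- UMIs of Krt5 were left in 28 cells, against 6 in the IEC+/+ library. The 5 lower genes were Krt4 (13.5 and 2.45 CPM, -2.46), Krt35 (4.84 and 1.49 CPM, -1.70), Krt90 (-1.34), Krt39 (-1.19) and Krt83 (-0.76). Krt4, the type II partner of Krt13, thus lay on the other side from Krt13 in the library totals. In the squamous-like cells, however, Krt4 read 47.8 CPM (22 UMIs in 3 cells) against 2.24 CPM in the other IEC-/- epithelial cells. Krt4 also read 24.4 CPM in Pnliprp2-Ptn and 22.4 CPM in Tgm4-Cadps cells, states with more IEC+/+ than IEC-/- cells. Krt10, Krt16, Krt32, Krt80, Krt84, Krt87 and Krt88 lay within 1.5-fold, Krt16 at 6.28 and 9.11 CPM.

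Genes that hold the keratin filament in place differed less. Of 12 genes of filament linkers and desmosomes, 8 of hemidesmosomes and 6 other intermediate filament genes with 50 or more UMIs, 0 were past 1.5-fold in either direction, with medians of 0.11, 0.0029 and 0.041. Dsp, the desmoplakin that ties keratins to desmosomes, read 204 and 237 CPM (0.22), Plec, the plectin linker, 94.8 and 116 CPM (0.30), and Lmna, a nuclear lamin, 441 and 569 CPM (0.37). Of 16 squamous and cornification genes with enough UMIs, 8 were higher and 2 lower (median 0.70), beside 5.90% and 9.44% of all genes, 5 of the 10 being keratins given above. The 2 lower genes were Krt4 and Dsg3, a desmosome cadherin of stratified epithelium (6.35 and 1.99 CPM, -1.67). The count of 8 higher genes includes the squamous-like cells and was not repeated without them. Cnfn lay almost wholly in those cells. Without them Krt13 and Krt6a came within 1.5-fold, as given above, while Krt5 and Krt6b stayed past it. Lypd3 had 25 UMIs in those cells, 39 in the other IEC-/- epithelial cells and 32 in IEC+/+ epithelial cells. Sprr2a3 read 117 and 279 CPM (1.26) and Sprr1a 56.0 and 100 CPM (0.84). Of 12 surface colonocyte genes, 5 were higher and 2 lower (median 0.31), beside the same 5.90% and 9.44% of all genes. Guca2a, a guanylin precursor, read 48.1 and 88.9 CPM (0.89) and Clca4a 9.27 and 14.6 CPM (0.65). Saa1 read 155 and 85.7 CPM (-0.86) and Clca4b 117 and 54.6 CPM (-1.10). The other higher genes had fewer UMIs and larger ratios: Aqp8 (1.42 and 6.49 CPM, 2.19), Slc26a3 (1.89 and 7.85 CPM, 2.06) and Car4 (1.77 and 5.26 CPM, 1.58). Of 11 epithelial fate factors, 2 were higher and 0 lower, beside the same shares of all genes. The 2 were Cdx2, the intestinal homeobox factor, at 9.40 and 16.1 CPM (0.78), and Tfap2a at 36 and 56 UMIs (0.72).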

How the data were processed

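The authors deposited UMI counts for every barcode of 2 libraries, 1 per genotype, made with Cell Ranger 4 per the file headers. Per the submitters' processing notes the build was mm10; Seurat is listed there with no role given; the sources used here name no annotation release. The members and gene lists were chosen with earlier results of these data known. UMIs were summed over the epithelial cells of a library or state and divided by their total (CPM). Levels carry exact Poisson intervals, ratios exact conditional binomial ones and shares Clopper-Pearson ones, for counting error only; a 1.5-fold difference was used to count genes with 50 or more UMIs.

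Barcodes were clustered over both libraries without integration (scanpy 1.11.5, Leiden resolution 1, 2000 variable genes without keratins, 30 components, 15 neighbours). One epithelial state is not reported here; its cells are in the sums over all epithelial cells and in the correlations. A state needed 30 cells in a library to be given for it. No doublets were removed in the values reported; leaving out the highest Scrublet scores was an alternative, as were barcodes over 25% mitochondrial UMIs. The ratio calculation was tested on simulated data. Named genes were the 10 keratins, other keratins with 50 or more UMIs and the 5 genes most like each keratin. Of each list, up to 4 members past 1.5-fold with the most UMIs were named. Dsp, Plec, Lmna, Dsg3, Lypd3, Aqp8, Slc26a3 and Car4 were named after their values were seen. So were the genes of the single Krt14-rich cell and the leading genes of the squamous-like state. Python 3.11.15, numpy 2.4.6 and scipy 1.17.1 were used.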

Additional observations from a re-analysis of the deposited data

How the results depend on the processing

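The counts of 0 keratins higher and 2 lower past 1.5-fold were the same under 12 other settings and 2 more added after the data were seen (without the squamous-like cells, and without each library's richest cell for the keratin). Over these 14, the Krt23 log2 ratio lay between -1.17 and -0.82 and that of Krt15 between -1.60 and -0.68, both nearest 0 with states weighted equally. That weighting turned Krt36 to 0.060 and Krt17 to 0.034. Leaving out barcodes with a Ptprc UMI turned Krt14 to 0.030, and averaging within states turned the IEC+/+ r of Krt20 with Krt14 to -0.018. The cause was not tested. Leaving the single Krt14-rich cell out of Myl7-Fxyd4 cells was also chosen after the data were seen. Median-of-ratios scaling put Krt23 at -1.09 and Krt15 at -1.26. Free RNA, estimated from immunoglobulin UMIs at 9.93% (IEC+/+) and 15.8% (IEC-/-), left Krt23 at -1.12 once subtracted. In each clustering tried, Krt8, Krt19 and Krt20 were highest in the cluster led by Clca4b or by Saa1 and Clca4b. No paired analysis was possible because each genotype has 1 library. Shares near those of the comparison barcodes and levels resting on 1 cell limit what Krt14, Krt15 and Krt20 show by state.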
